A study of Homo sapiens with 47 samples.

Results

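The super elongation complex (SEC) and its kinase P-TEFb were followed through 9 genes out of the 58395 whose RNA was counted. These were AFF1, AFF4, MLLT1, MLLT3, CDK9, CCNT1, CCNT2, HEXIM1 and LARP7, picked by symbol for their place in the pathway, and all 9 were among the 28025 genes that passed edgeR's filter on low counts. Total RNA freed of ribosomal RNA was sequenced from wild-type HEK293T cells, a human embryonic kidney line, and from EAF1-mutant HEK293T cells, with 3 libraries of each. Gene counts came to 59137210, 52541541 and 55637032 in the libraries of unedited wild-type cells and to 57198018, 53369621 and 66611451 in those of the mutant. In the mutant line, CRISPR knock-in had changed both alleles of EAF1 so that a stretch of its MED26-binding site was replaced by alanines. The methods name 1 such line, so the mutation and other properties of that line cannot be told apart. The study states that experiments of this kind were repeated at least 3 times as biological replicates, but nothing says of these libraries that each came from a separate culture, so p-values measure only the spread between libraries.

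RNA polymerase II often pauses shortly after it starts a gene, and P-TEFb, a pair of the kinase CDK9 with cyclin T1 or T2, phosphorylates the polymerase and pausing factors to release it. SEC joins P-TEFb to ELL-family elongation factors and their EAF partners on the scaffolds AFF1 or AFF4, while MLLT1 (ENL) or MLLT3 (AF9) read acylated histones. Much of P-TEFb is held inactive in a particle of 7SK RNA, in which HEXIM1 blocks the kinase and LARP7 and MEPCE protect the RNA. EAF1 belongs to SEC and also to the little elongation complex (LEC), which acts at small nuclear RNA genes.

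Values per library are given in CPM, each count as a share of its library size after TMM scaling, which corrects for library composition, times 1e6. EAF1 itself had 57.5, 58.4 and 56.5 CPM in wild-type and 19.7, 17.9 and 18.8 CPM in EAF1-mutant libraries. All mutant libraries lay below all wild-type ones, but a point mutation leaves the RNA countable, so this does not check the labels. Genes on the other strand cover 40% of the exons of EAF1, so part of these counts may be theirs. EAF1 fell by 1.61 on the log2 scale (SE 0.05, 3 libraries a group, adjusted p = 2.48e-18 by edgeR's quasi-likelihood test with Benjamini-Hochberg adjustment). This is a value of RNA, and the study reported little change of EAF1 protein in the mutant cells by western blot. The 84 other tested genes that start within 5 Mb of EAF1 had a median log2 fold change of -1.41, and the part of the region in the fall of EAF1 was not tested. Of 10 markers of HEK293T, 9 were at 1 CPM or more in wild-type cells and PAX2 was at 0.679 CPM. The 10 markers summed to 709, 719 and 737 CPM in wild-type and 533, 528 and 540 CPM in mutant libraries, with vimentin (VIM) the most abundant at 380 and 199 CPM. They did not move together, since KRT8 went from 22.9 to 59.4 CPM and KRT18 from 34.4 to 60.5 CPM. Their part in the results below was not tested. The 10 markers of blood, endothelium, hepatocytes and fibroblasts summed to 5.05 to 6.20 CPM in all 6 libraries, mostly from COL1A1 (2.85 and 4.16 CPM) and COL3A1 (2.10 and 0.469 CPM in wild-type and mutant cells), which moved in opposite directions, and CD3E had no count in 5 libraries.

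None of the 9 members passed the study's threshold, an adjusted p under 0.01 with a log2 fold change over 0.5 in size, in either direction. With edgeR's quasi-likelihood test 0 were higher and 0 lower, against 11% and 9.36% of all tested genes, and DESeq2 also gave 0, while 5 of the 9 had an unadjusted p under 0.05, as had 56.2% of all tested genes. With an adjusted p under 0.05 and no fold limit, the scaffolds AFF1 and AFF4, the reader MLLT3 and the cyclin CCNT1 were higher and 0 members were lower. The shares of all tested genes were 25.9% higher and 25.6% lower. The same 4 genes had every mutant library above every wild-type library, against 29.2% of all tested genes, and 0 members had the reverse, against 28.1%. The members' median log2 fold change was 0.09 and that of all tested genes was 0.01, with quartiles of -0.26 and 0.30. By role, the medians were 0.24 for the 4 scaffolds and readers, of which 3 were higher without a fold limit, 0.05 for the 3 P-TEFb subunits, of which 1 was, and 0.02 for the 2 inhibitors, of which 0 were in edgeR or DESeq2 (1 had an unadjusted p under 0.05 in edgeR). In a bulk sample, less RNA per cell and fewer cells that hold the RNA cannot be told apart.

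The scaling of the libraries matters at this size of difference. When TMM was dropped and libraries were scaled by their totals only, the median of all tested genes moved to 0.13 on the log2 scale, the members' median moved to 0.20, and 8 of 9 members were higher at an adjusted p under 0.05, against 36.5% of all tested genes. Past the study's threshold, 3071 genes were higher and 2624 lower with TMM, and 4169 were higher and 1840 lower with library totals alone. Under both scalings 0 members passed the study's threshold.

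**Figure D1:**
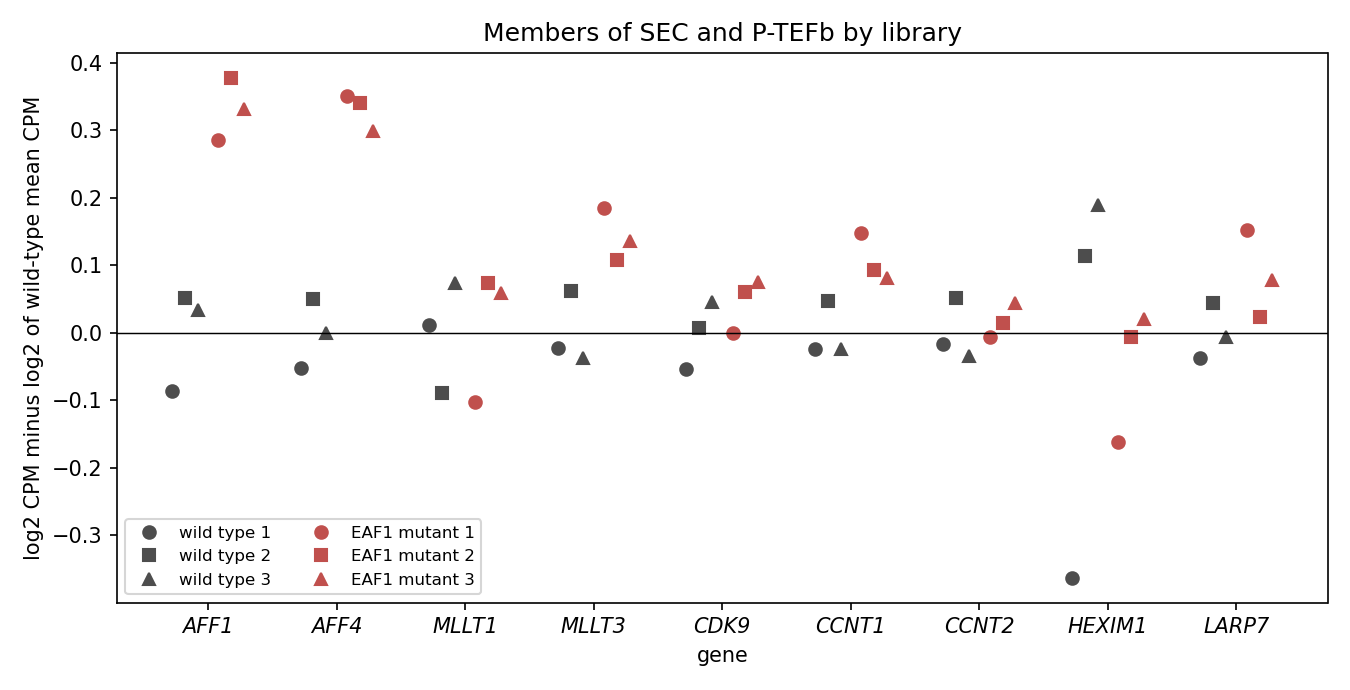
Each point is 1 library's log2 CPM minus the log2 of the wild-type mean CPM, for each of the 9 members (gray, 3 wild-type libraries; red, 3 EAF1-mutant libraries). AFF1 and AFF4 stand clear of their wild-type libraries, and HEXIM1 has 1 wild-type library far below the others.

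The largest differences were those of the scaffolds. AFF1, also called AF4, is a long flexible protein on which the other SEC subunits assemble, and AFF4 is its close relative. AFF1 (ENSG00000172493, chr4:86935002-87141039, plus strand, GRCh38) had 51.7, 56.9 and 56.2 CPM in wild-type and 66.9, 71.3 and 69.1 CPM in EAF1-mutant libraries. AFF4 (ENSG00000072364, chr5:132875395-132963634, minus strand) had 109, 117 and 113 CPM in wild-type and 144, 143 and 139 CPM in EAF1-mutant libraries. For both genes the lowest mutant library was above the highest wild-type library, by more than the whole range within either group. AFF1 rose 1.26-fold (95% interval 1.18 to 1.34, log2 fold change 0.33, SE 0.04, adjusted p = 7.84e-07, edgeR's quasi-likelihood test with Benjamini-Hochberg adjustment). AFF4 also rose 1.26-fold (95% interval 1.19 to 1.33, log2 fold change 0.33, SE 0.04, adjusted p = 1.27e-07, same test). Across all alternatives the adjusted p of AFF1 ran from 1.38e-12 to 2.91e-05 and that of AFF4 from 3e-14 to 5.85e-06 (edgeR's quasi-likelihood test or DESeq2, Benjamini-Hochberg adjustment).

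The ratio of AFF1 to AFF4 per length of exon, taken within each library so that scaling cancels, was 0.488, 0.499 and 0.513 in wild-type and 0.480, 0.513 and 0.513 in EAF1-mutant libraries. The groups overlapped, and the mean log2 ratio differed by 0.00 (two-sided exact permutation test, p = 0.9, where 3 against 3 libraries allow no p under 0.1). The distant relatives AFF2 and AFF3, which are much less abundant in these cells, were higher too at an adjusted p under 0.05. AFF2 had 14.6, 15.9 and 14.8 CPM in wild-type and 19.4, 20.8 and 17.8 CPM in mutant libraries (log2 fold change 0.35). AFF3 had 14.5, 14.6 and 15.1 CPM in wild-type and 19.3, 19.0 and 21.4 CPM in mutant libraries (log2 fold change 0.44). In all 4 AFF genes the groups did not overlap under TMM, and each was higher under both scalings. On the list of 5 paralogs of members, these 2 were higher and YEATS4 (-0.18) was lower at an adjusted p under 0.05, with a median log2 fold change of 0.20, and with library totals alone 4 were higher and 0 lower with a median of 0.32. The shares of all tested genes were 25.9% higher and 25.6% lower with TMM, and 36.5% higher with library totals alone. Past the study's threshold 0 of the 5 were higher or lower in edgeR and in DESeq2, and 4 had an unadjusted p under 0.05 (56.2% of all tested genes), while AFF3 passed it with library totals alone (log2 fold change 0.55).

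The stretch before each scaffold gene's start is shown because AFF1 and AFF4 rose by like amounts. It was taken from the promoter sequences of RefSeq (GRCh38.p14), for AFF1 from chr4:86934861-86935000 on the plus strand and for AFF4 from chr5:132963645-132963784 on the minus strand. Capitals mark the letters GGGCGG or, on the other strand, CCGCCC, the core of a GC box. The far end of the AFF4 stretch lies in an exon of AFF4-DT, a noncoding gene that runs the other way.
AFF1 upstream: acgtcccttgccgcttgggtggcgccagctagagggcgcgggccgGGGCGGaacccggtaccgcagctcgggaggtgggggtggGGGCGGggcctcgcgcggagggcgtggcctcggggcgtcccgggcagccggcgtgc
AFF4 upstream: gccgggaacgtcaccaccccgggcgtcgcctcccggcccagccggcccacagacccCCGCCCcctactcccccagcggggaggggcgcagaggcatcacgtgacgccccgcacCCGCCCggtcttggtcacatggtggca
Each stretch held 2 such matches. In the full promoter windows of 300 bases, which matched all 9 members, the GC box letters were found on either strand in 9 of 9 members and in 45% of 35116 promoters. CCAAT or its reverse complement was found in 7 of 9 members and 34.6% of promoters, and TATAAA or its reverse complement in 1 of 9 members, HEXIM1, and 11.5% of promoters. A match is only a match of letters, and binding was not measured.

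Of the readers, MLLT3 passed the test without a fold limit under TMM, and MLLT1 passed it only with library totals alone (log2 fold change 0.13, adjusted p = 0.0335 in edgeR). MLLT3 (AF9, chr9:20341669-20622499, minus strand) and MLLT1 (ENL, chr19:6210381-6279975, minus strand) each carry a YEATS domain and sit in SEC or, in other assemblies, beside the methyltransferase DOT1L. MLLT3 had 56.8, 60.2 and 56.2 CPM in wild-type and 65.6, 62.2 and 63.4 CPM in EAF1-mutant libraries. MLLT1 had 48.5, 45.2 and 50.6 CPM in wild-type and 44.8, 50.6 and 50.1 CPM in EAF1-mutant libraries. The groups were apart for MLLT3 and overlapped almost wholly for MLLT1. MLLT3 rose 1.10-fold (95% interval 1.04 to 1.17, log2 fold change 0.14, adjusted p = 0.00532, edgeR's quasi-likelihood test with Benjamini-Hochberg adjustment). Without wild-type replicate 3 that adjusted p was 0.0684, and over all alternatives it ran from 1.16e-05 to 0.0684. MLLT1 had a fold change of 1.01 (95% interval 0.939 to 1.08, adjusted p = 0.858, same test), with adjusted p from 0.0335 to 0.987 over the alternatives. The ratio of MLLT1 to MLLT3 per length was 1.45, 1.27 and 1.53 in wild-type and 1.16, 1.38 and 1.34 in mutant libraries, which overlap (two-sided exact permutation test, p = 0.4). The log2 difference of -0.13 ran from -0.21 without wild-type replicate 2 to -0.05 without EAF1-mutant replicate 1. A difference between the readers in their response was thus not shown.

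**Figure D2:**
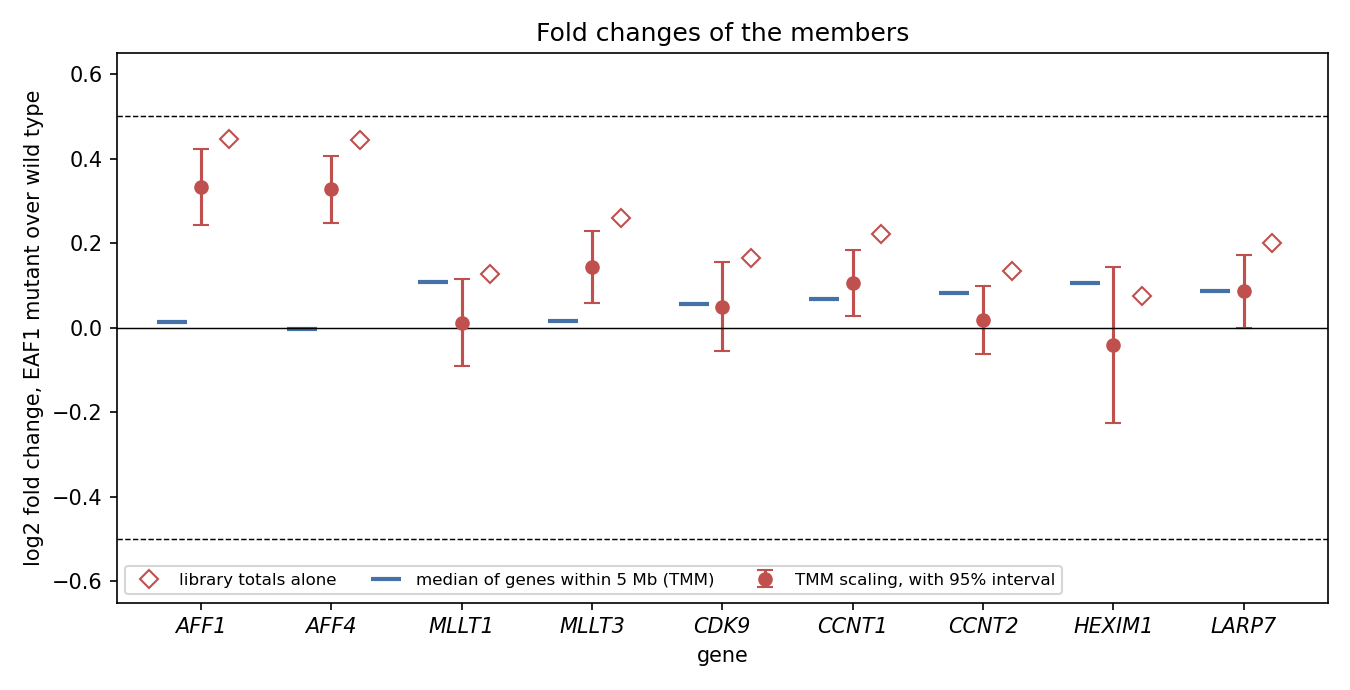
Log2 fold change of each member in EAF1-mutant over wild-type cells (3 libraries each) with TMM scaling and its 95% interval (filled), with library totals alone (open), and the median of tested genes that start within 5 Mb (blue bar); dashed lines mark 0.5 and -0.5. AFF1 and AFF4 are at 0.33 with neighbors near 0, all 9 members lie inside the dashed lines, and HEXIM1 changes sign between the scalings.

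The kinase subunits stayed close to their wild-type levels. CDK9 (chr9:127785679-127790792, plus strand), the catalytic subunit, had 18.2, 19.0 and 19.5 CPM in wild-type and 18.9, 19.7 and 19.9 CPM in EAF1-mutant libraries. CCNT1 (chr12:48688458-48716998, minus strand), which encodes cyclin T1, had 119, 125 and 119 CPM in wild-type and 134, 129 and 128 CPM in EAF1-mutant libraries. CCNT2 (chr2:134918235-134959342, plus strand), which encodes cyclin T2, had 70.4, 73.8 and 69.5 CPM in wild-type and 70.9, 71.9 and 73.4 CPM in mutant libraries. The groups overlapped for CDK9 and CCNT2 and were apart for CCNT1. CCNT1 rose 1.08-fold (95% interval 1.02 to 1.14, adjusted p = 0.0203, edgeR's quasi-likelihood test with Benjamini-Hochberg adjustment). The adjusted p of CCNT1 ran from 2.65e-05 to 0.154 over the alternatives, and it stayed under 0.05 in 3 of the 6 fits that left out 1 library, and not without wild-type replicate 1 (0.0977) or 3 (0.154) or EAF1-mutant replicate 1 (0.0893). CDK9 had a fold change of 1.03 (95% interval 0.962 to 1.11) and CCNT2 one of 1.01 (95% interval 0.957 to 1.07), and neither passed (adjusted p = 0.443 and 0.730, same test). With library totals alone, the log2 fold changes of CDK9, CCNT1 and CCNT2 were 0.16, 0.22 and 0.13. All 3 then passed (adjusted p = 0.00878, 2.65e-05 and 0.0062, same edgeR test).

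The balance of the cyclins was given by the ratio of CCNT1 to CCNT2 per length. It was 2.09, 2.08 and 2.11 in wild-type and 2.16 to 2.32 in EAF1-mutant libraries. All mutant ratios were above all wild-type ratios, and the mean log2 ratio was 0.09 higher. The test reached the smallest p that 3 against 3 libraries allow (two-sided exact permutation test, p = 0.1, adjusted p = 0.6 over 6 ratios). The 6 ratios include that of HEXIM1 to its paralog HEXIM2, which is not a member. Without EAF1-mutant replicate 1 the log2 difference was 0.06. This ratio was the only one of the 6 whose groups did not overlap.

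The inhibitors gave no call, and HEXIM1 was the least even member in wild-type cells. HEXIM1 (chr17:45148475-45152099, plus strand), the protein that inhibits CDK9 when bound to 7SK RNA, had 16.1, 22.4 and 23.6 CPM in wild-type and 18.5, 20.6 and 21.0 CPM in EAF1-mutant libraries. The first wild-type library was the lowest of all 6, and the others of that group were the highest. The coefficient of variation (SD over mean) of HEXIM1 was 19.4% in wild-type cells, above that of 99.8% of the 10619 genes with a wild-type mean of 10 to 200 CPM, whose median was 3.74%, and 6.63% in mutant cells. HEXIM1 had a log2 fold change of -0.04 (95% interval -0.22 to 0.14, adjusted p = 0.733, edgeR's quasi-likelihood test with Benjamini-Hochberg adjustment), and of 0.07 with library totals alone. Without wild-type replicate 1 the log2 fold change was -0.21 with an adjusted p of 0.00421 in the same test, the lowest of a range that reached 0.947 over the alternatives. The call on HEXIM1 thus depended on 1 library. Some counts of HEXIM1 may come from HEXIM2-AS1, which covers 14.3% of its exon on the other strand.

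LARP7 (chr4:112637077-112657696, plus strand), which binds the end of 7SK RNA, had 71.8, 76.0 and 73.4 CPM in wild-type and 81.9, 74.9 and 77.8 CPM in EAF1-mutant libraries. The groups overlapped in 1 mutant library, and the log2 fold change of 0.09 did not pass (95% interval 0.00 to 0.17, adjusted p = 0.0881, edgeR's quasi-likelihood test with Benjamini-Hochberg adjustment). It passed under a filter that kept genes averaging 1 CPM or more (adjusted p = 0.0314) and with library totals alone, in a range from 2.62e-04 to 0.363 over the alternatives. The ratio of LARP7 to CDK9 per length was 1.45 in wild-type and 1.49 in mutant cells, and that of HEXIM1 to CDK9 was 0.897 and 0.851 (geometric means). Both overlapped between groups (two-sided exact permutation test, p = 0.8 and 0.6). HEXIM2, a paralog of HEXIM1 at a lower level, had 5.00, 4.35 and 5.27 CPM in wild-type and 5.32, 5.94 and 5.60 CPM in mutant libraries, and its log2 fold change of 0.20 did not pass (adjusted p = 0.0698, same edgeR test), though it did with the filter at 1 CPM (0.0417) and with library totals alone (0.00503). Without wild-type replicate 2 its log2 fold change was 0.12 (adjusted p = 0.317). The ratio of HEXIM1 to HEXIM2 was 2.33 and 1.98 (p = 0.4, exact permutation test), a log2 difference of -0.24 that ran from -0.43 without wild-type replicate 1 to -0.09 without wild-type replicate 2. Genes on the other strand cover 79.3% of the exons of HEXIM2, so its count and this ratio are uncertain.

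7SK RNA itself rose in the EAF1-mutant cells. The gene RN7SK is transcribed by RNA polymerase III from chr6:52995621-52995948 on the plus strand, and its RNA is the platform on which HEXIM1, LARP7 and MEPCE meet P-TEFb. RN7SK had 14303, 13649 and 13672 CPM in wild-type and 19955, 20558 and 20341 CPM in EAF1-mutant libraries. It took 1.37%, 1.31% and 1.32% of all counts in wild-type and 2.08%, 2.14% and 2.11% in mutant libraries. The groups lay far apart, and RN7SK rose 1.46-fold (95% interval 1.40 to 1.53, log2 fold change 0.55, SE 0.03, adjusted p = 1.1e-12, edgeR's quasi-likelihood test with Benjamini-Hochberg adjustment). This count is uncertain, since the genome holds many 7SK copies, the handling of reads with several matches is not given in the sources used here, and a second annotated entry at the same place had the identical count in every library. MEPCE, which caps and protects 7SK RNA, had 81.9, 76.1 and 80.1 CPM in wild-type and 95.3, 94.5 and 96.9 CPM in mutant libraries and rose 1.20-fold (adjusted p = 3.32e-06, same test). Other annotated genes cover 61.3% of the MEPCE exons on the same strand.

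**Figure D3:**
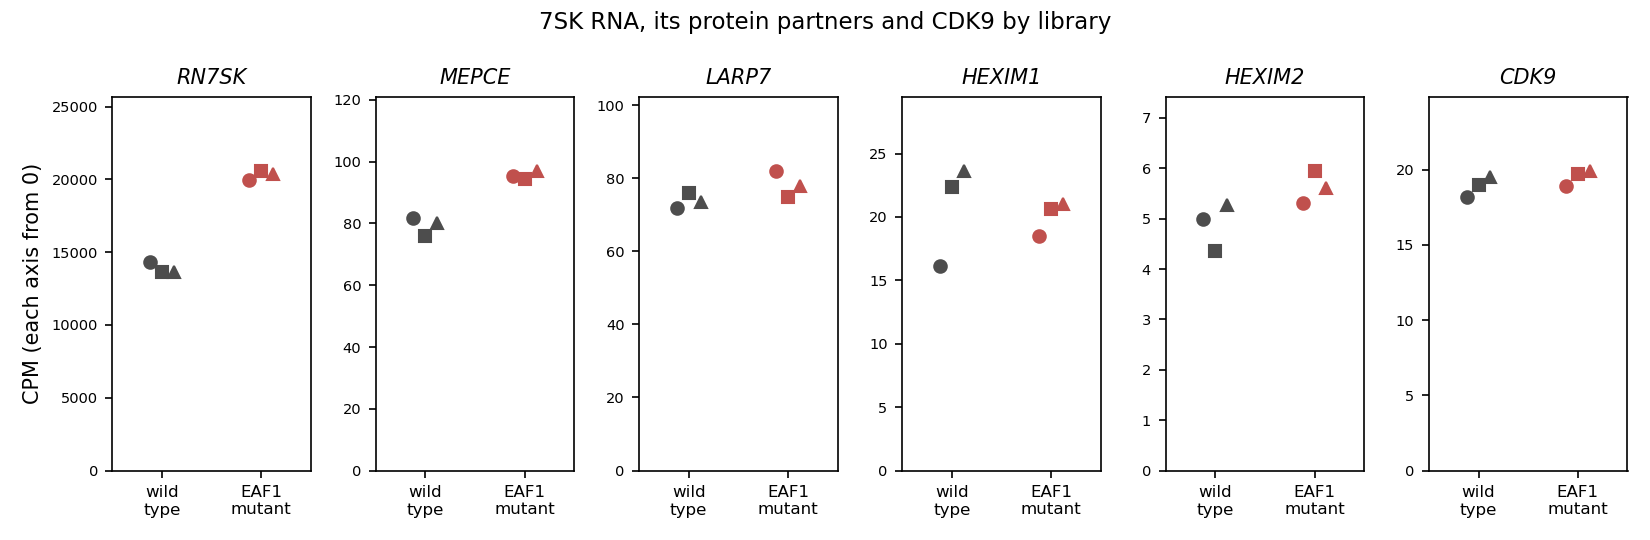
CPM in each library (gray, 3 wild-type; red, 3 EAF1-mutant) for 7SK RNA, its protein partners and CDK9, each on its own linear axis from 0. RN7SK and MEPCE are higher in all mutant libraries, CDK9 and LARP7 overlap between groups, and HEXIM1 varies most within the wild type.

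The order of the members was compared as RPKM, which is CPM divided by the length of a gene's merged annotated exons in kilobases. In wild-type cells CCNT1 was highest with 16.4 ± 0.445 RPKM (SD, n = 3). MLLT1 (10.1 ± 0.572) and AFF4 (10.0 ± 0.374) came next with overlapping ranges. LARP7 (9.11 ± 0.267), CCNT2 (7.84 ± 0.249), MLLT3 (7.15 ± 0.267) and CDK9 (6.28 ± 0.225 RPKM) followed, with ranges apart from each other. HEXIM1 (5.71 ± 1.11 RPKM) overlapped both CDK9 above it and AFF1 (5.01 ± 0.259 RPKM) below it. Cyclin T RNA was thus in excess of CDK9 RNA on this scale, and the members spanned 5.01 to 16.4 RPKM. In EAF1-mutant cells AFF4 (12.6 ± 0.235 RPKM) stood above MLLT1 (10.2 ± 0.679 RPKM) with no overlap, and AFF1 (6.31 ± 0.203 RPKM) stood above HEXIM1 (5.53 ± 0.367 RPKM). The length in use matters most for LARP7, which had 23 RPKM and the first place when divided by its longest transcript in place of its merged exons.

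**Figure D4:**
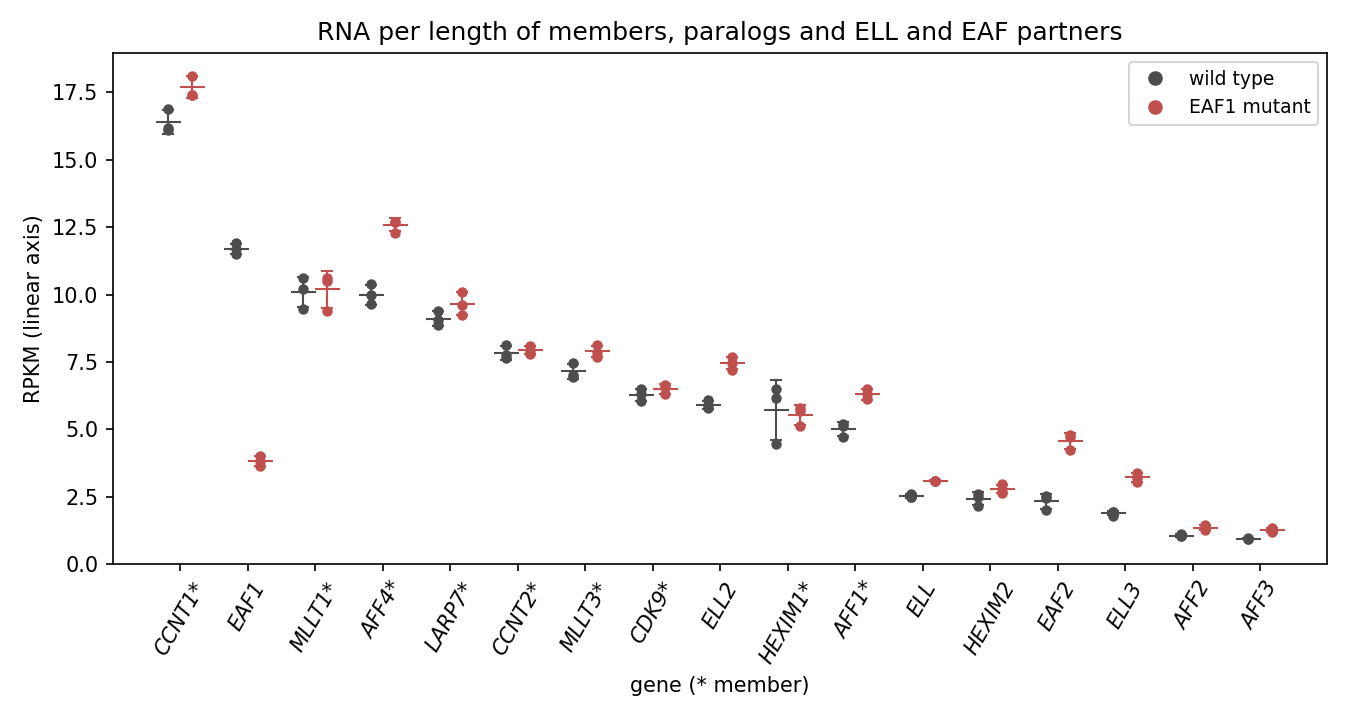
RPKM of the members (asterisk), HEXIM2, AFF2, AFF3 and the ELL and EAF genes, with each library as a point and the mean and SD of 3 libraries as bars (gray, wild type; red, EAF1 mutant; linear axis from 0). CCNT1 leads the members at 16.4 RPKM in wild-type cells, and EAF1 goes from 11.7 to 3.82 RPKM.

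On the same scale the partner EAF1 had 11.7 RPKM in wild-type and 3.82 RPKM in mutant cells, and its paralog EAF2 had 2.33 and 4.57 RPKM. EAF2 had 4.49, 4.33 and 3.55 CPM in wild-type and 8.31, 8.45 and 7.49 CPM in mutant libraries. The mutant libraries were all higher, and EAF2 rose 1.95-fold (log2 fold change 0.97, adjusted p = 5.03e-09, edgeR's quasi-likelihood test with Benjamini-Hochberg adjustment). Of the elongation factors that SEC carries, ELL2 was the most abundant per length (5.92 RPKM in wild-type cells), ahead of ELL (2.52 RPKM) and ELL3 (1.89 RPKM). All ELL genes were higher in every mutant library, with log2 fold changes of 0.33 for ELL2, 0.29 for ELL and 0.77 for ELL3. Of these, ELL3 passed the study's threshold, and its exons overlap other genes over 62.3% of their length on the same strand, so its count is uncertain. Of the 7 ELL, EAF and ICE genes, 2 passed the study's threshold higher (EAF2 and ELL3) and 1 lower (EAF1). The shares of all tested genes past it were 11% and 9.36%. Without a fold limit 4 of the 7 were higher and 2 lower, against 25.9% and 25.6% of all tested genes. The other lower one was ICE1 (-0.15), which did not pass with library totals alone. The median log2 fold change of the 7 was 0.29 (0.41 with library totals alone).

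Position on the chromosome was described for the members, because genes near EAF1 had low values. The median log2 fold change of the 77 tested genes within 5 Mb of AFF1 was 0.01 and that of the 105 near AFF4 was 0.00, below the 0.33 of each scaffold. Around the other 7 members the medians ran from 0.02 near MLLT3 to 0.11 near MLLT1 and HEXIM1. Among other genes of the pathway, MLLT10 (-0.40), MNAT1 (-0.47) and SKIC8 (-0.54) lay among genes with median log2 fold changes of -0.48, -0.21 and -0.34. EAF2 (0.97) and BRD2 (0.76) lay among genes with medians of 0.26 and 0.20. AFF2, at 0.35, lay among genes with a median of -0.33. Higher genes whose neighbors had medians between 0.01 and 0.09 were RN7SK, MYC, ELL3, AFF3 and ELL2. The part of position in these values was not tested.

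All 60 other genes on lists of the pathway were tested. Past the study's threshold 8 were higher and 2 lower (edgeR's quasi-likelihood test), against 11% and 9.36% of all tested genes. Without a fold limit 25.9% of all tested genes were higher and 25.6% lower at an adjusted p under 0.05. Of the 60, 23 were higher and 23 lower by that rule (20 and 23 in DESeq2), and the median log2 fold change was 0.05. With library totals alone these numbers were 36 and 15, so the balance of higher and lower genes rested on the scaling. The genes past the threshold were EAF2, ELL3, RN7SK, BRD2, MYC, FOS, EGR1 and HOXA10, which rose, and EAF1 and SKIC8, which fell.

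Among the 10 genes for recruiters of P-TEFb and SEC, BRD2, a bromodomain protein of the family that brings P-TEFb to acetylated chromatin, had 430, 427 and 443 CPM in wild-type and 724, 742 and 734 CPM in mutant libraries. All mutant libraries were higher, and BRD2 rose 1.69-fold. BRD3 had a log2 fold change of 0.04. SKIC8, a subunit shared by the PAF complex, fell by 0.54 on the log2 scale, and by 0.42 with library totals alone, where it missed the threshold. CDC73, CTR9, LEO1 and RTF1 of the same complex were lower at an adjusted p under 0.05 with TMM, and of these only CDC73 was with library totals alone, whereas PAF1 was higher under both. LEO1 also did not pass without wild-type replicate 2 (adjusted p = 0.0828) or EAF1-mutant replicate 2 (0.118) or 3 (0.0513). Of the 10 recruiters, 3 were higher and 5 lower at an adjusted p under 0.05 without a fold limit, with a median log2 fold change of -0.05. By that rule 25.9% of all tested genes were higher and 25.6% lower. With library totals alone 5 of the recruiters were higher and 2 lower, and their median was 0.07.

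Of 7 genes for P-TEFb substrates, 5 were higher and 0 lower at an adjusted p under 0.05, with a list median log2 fold change of 0.20, where 25.9% and 25.6% of all tested genes were higher and lower. With library totals alone all 7 were higher, against 36.5% of all tested genes, and the median was 0.32. SUPT5H, which encodes the large subunit of the pausing factor DSIF, had 95.9, 95.8 and 98.0 CPM in wild-type and 127, 134 and 132 CPM in mutant libraries (log2 fold change 0.44, adjusted p = 5.68e-10, edgeR's quasi-likelihood test with Benjamini-Hochberg adjustment). The groups were apart. NELFB (0.34), NELFE (0.26), SUPT4H1 (0.20) and POLR2A (0.16) were the others, of which POLR2A had overlapping groups and did not pass without wild-type replicate 1 (adjusted p = 0.178 in edgeR) or EAF1-mutant replicate 2 (0.186) or 3 (0.0510), nor in DESeq2 (0.0505), where 4 of the 7 were higher. The count of SUPT4H1 is uncertain, since other genes cover 63.7% of its exons on the same strand and 27.8% on the other. Past the study's threshold 0 of the 7 were higher or lower, in edgeR and in DESeq2, and 5 had an unadjusted p under 0.05 (56.2% of all tested genes), while SUPT5H passed it with library totals alone (log2 fold change 0.56).

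Of 9 genes for the 7SK particle and P-TEFb release other than the members, 2 were higher (RN7SK and MEPCE) and 5 lower at an adjusted p under 0.05. The shares of all tested genes were 25.9% higher and 25.6% lower by that rule. The lower ones encode RNA-binding proteins that take up or act on 7SK RNA and were HNRNPA1 (-0.36), HNRNPA2B1 (-0.23), HNRNPR (-0.15), SYNCRIP (-0.27) and SRSF2 (-0.29), where HNRNPR did not pass with library totals alone. HNRNPA1 had 1349, 1472 and 1473 CPM in wild-type and 1138, 1090 and 1112 CPM in mutant libraries, all of them lower. The median of this list was -0.15. Under library totals alone it was -0.04, with 4 of the 9 higher and 4 lower.

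Of 8 MLL and DOT1L partners of the readers, 1 was higher (BCOR, 0.40) and 4 lower (MLLT10, PSIP1, CBX8 and MEN1) at an adjusted p under 0.05. By that rule 25.9% of all tested genes were higher and 25.6% lower. The median log2 fold change of the 8 was -0.07. With library totals alone 4 were higher and 3 lower and the median was 0.05. MEN1 had one of -0.11 with TMM and of 0.00 with library totals alone, and did not pass without wild-type replicate 3 (adjusted p = 0.0887 in edgeR) or EAF1-mutant replicate 1 (0.0836) or 2 (0.0653). Of 6 genes of other transcription kinase complexes, CDK7 was higher at 0.13 and MNAT1 (-0.47), CDK12 (-0.25) and CDK13 (-0.19) were lower, against the same shares of all tested genes. CDK13 was not past 0.05 under library totals alone, and the list median was -0.05. Of the 6, 3 were higher and 2 lower with library totals alone, and the median was 0.07. CDK7 did not pass in DESeq2 (adjusted p = 0.140), nor in edgeR without wild-type replicate 2 (0.0703) or 3 (0.185) or EAF1-mutant replicate 1 (0.122) or 3 (0.0754). Past the study's threshold 0 genes of either list were higher or lower in edgeR and in DESeq2, and 5 of each had an unadjusted p under 0.05 (56.2% of all tested genes). Under library totals alone 1 of the MLL and DOT1L partners, BCOR, passed it, and leaving out EAF1-mutant replicate 1 (log2 fold change -0.52) or wild-type replicate 3 (-0.52) took MNAT1 past it.

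The 9 genes chosen as textbook cases of SEC-dependent elongation did not move as one, with 5 higher and 3 lower at an adjusted p under 0.05 and a median log2 fold change of 0.48 (6, 3 and 0.60 with library totals alone). With TMM 25.9% of all tested genes were higher and 25.6% lower by that rule. MYC had 100, 99.4 and 107 CPM in wild-type and 177, 182 and 182 CPM in mutant libraries and rose 1.77-fold. HOXA10 had 84.1, 86.8 and 84.0 CPM in wild-type and 144, 141 and 143 CPM in mutant libraries and rose 1.68-fold. The groups of both were far apart, and HOXA9 was higher at a log2 fold change of 0.48, which passed the threshold without EAF1-mutant replicate 3 (0.50) and with library totals alone (0.60). Other annotated genes cover 9.93% of the HOXA10 exons on the same strand and 16.4% on the other. For HOXA9 these shares were 15.9% and 13.9%, and HOXA10-AS overlaps both genes. Part of both counts may thus come from other genes. FOS (0.761 and 1.36 CPM) and EGR1 (0.383 and 0.722 CPM) passed the threshold at very low levels. EGR1 did so neither in DESeq2 (adjusted p = 0.0392) nor without wild-type replicate 1 or 3 or EAF1-mutant replicate 1 or 2, where edgeR's quasi-likelihood test gave adjusted p values up to 0.0508. The heat shock genes HSPA1A (-0.23) and HSPA1B (-0.23), whose near-identical sequences make their counts uncertain, and MEIS1 (-0.24) were lower at an adjusted p under 0.05, and JUN (0.09) was not past it.

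**Figure D5:**
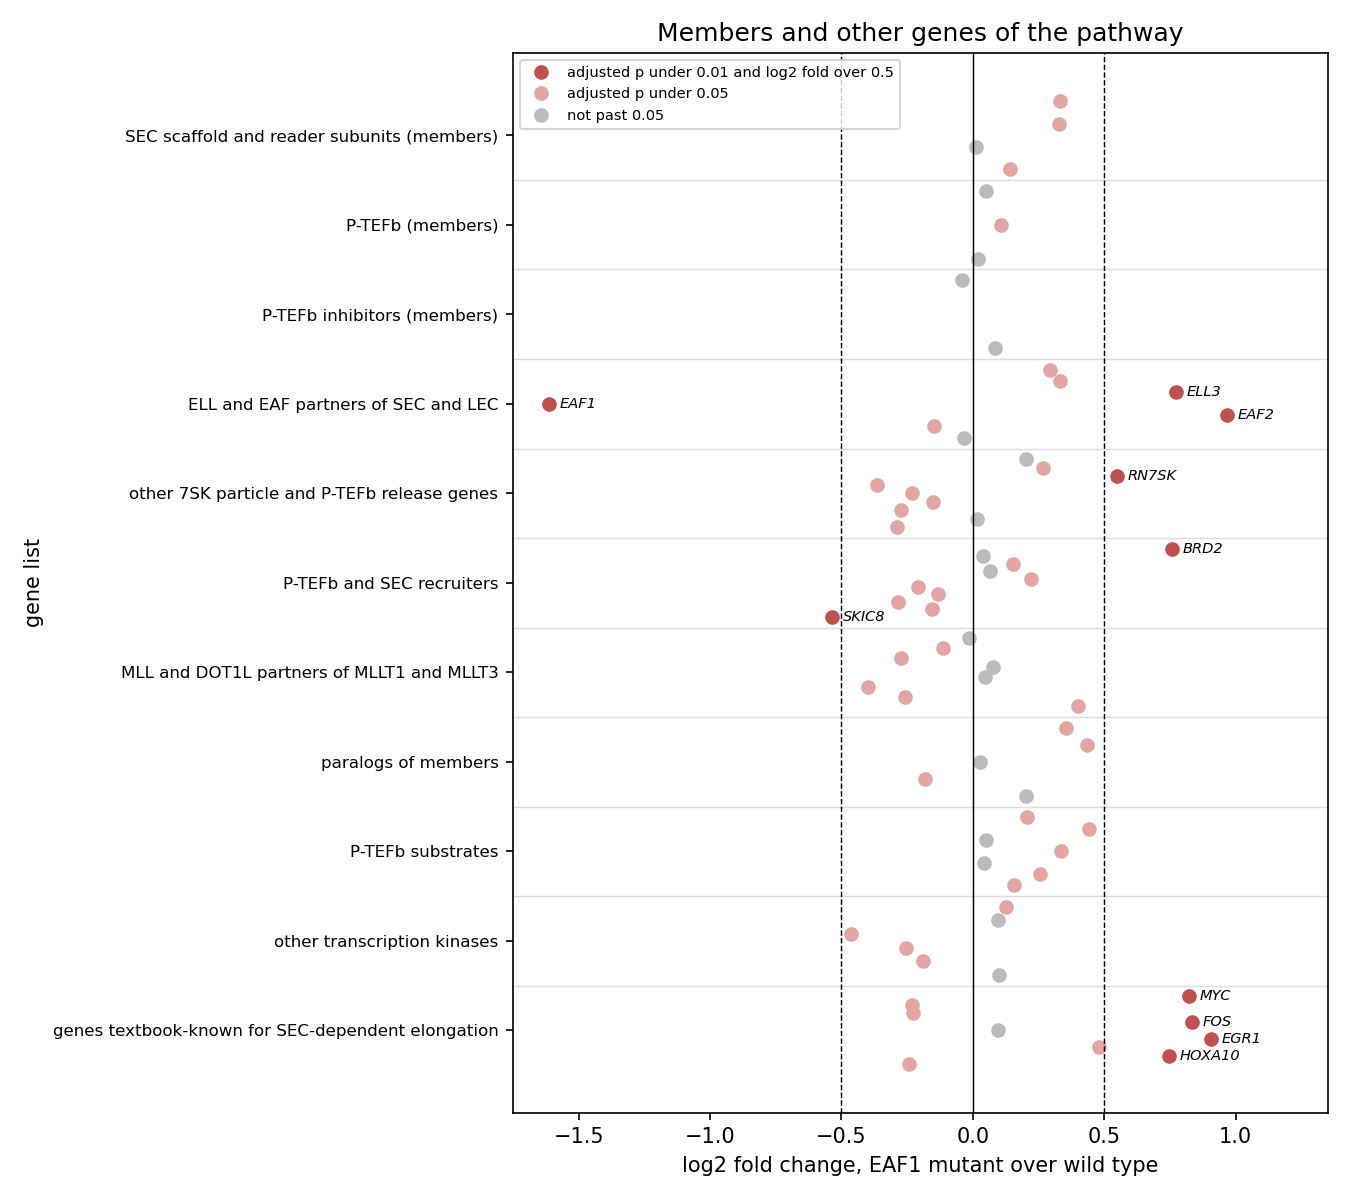
Log2 fold change in EAF1-mutant over wild-type cells (TMM scaling, 3 libraries each) for every gene of each list, with dark red for genes past the study's threshold, light red for an adjusted p under 0.05 and gray for the others; HEXIM2 is on 2 lists. The members at the top lie between -0.04 and 0.33, while EAF1 at -1.61 and EAF2 at 0.97 bound the other genes.

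These values are RNA levels of 1 line of each genotype, and protein amounts, kinase activity and the assembly of SEC or the 7SK particle were not analysed here. Reads of overlapping genes were not parted, which touches 16.3% of the exon length of LARP7 and 1.65% of that of CCNT2 on the other strand and 5.82% of that of CDK9 on the same strand, while AFF1, AFF4, MLLT1, MLLT3 and CCNT1 have no such overlap.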

How the data were processed

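The raw counts per gene are those the authors deposited, made by them from trimmed paired-end reads with HISAT2 on GRCh38 and Rsubread. The libraries were made with a strand-marking kit. How strands were treated in counting is not given in the sources. Single-exon genes lying inside an exon of a gene on the other strand had a median density of 0.793 of their host (79 pairs), near the 0.937 of those on the same strand (84 pairs), so reads of overlapping genes were not parted. An ELL ChIP-seq table was not used here.

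Here, counts were tested with edgeR 4.0.16 (TMM, filterByExpr, quasi-likelihood, Benjamini-Hochberg over all tested genes), and with DESeq2 1.42.0 as an alternative. The biological coefficient of variation was 4.11%. The threshold followed the study's methods. Exon lengths and positions came from GENCODE v44, which matched 57754 genes. Ratios were tested by exact permutation. WDR61 is given as SKIC8. All members, EAF1 and list genes past a threshold or needed for a count were named. Members and lists were chosen with earlier results of these data known.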

Additional observations from a re-analysis of the deposited data

How the results depend on the processing

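The counts of members past the study's threshold were 0 in both directions in each fit tried. At an adjusted p under 0.05 with no fold limit, an alternative rule under which 4 members were higher, the other fits for that rule, chosen after seeing the data, gave 8 with library totals alone, 5 with a filter at a mean of 1 CPM, where LARP7 was added, and 2 to 4 higher and 0 to 1 lower with 1 library left out. That rule gave 23 higher and 23 lower among the other pathway genes and 7250 and 7170 among all genes. With library totals alone 12 other pathway genes were higher and 1 lower past the threshold, HEXIM1 was at 0.0743 and MEN1 at 0.0010 (log2). With 1 library left out, log2 fold changes ran from -0.0402 to 0.0659 for MLLT1, from -0.0162 to 0.0335 for CCNT2, from 0.0085 to 0.0701 for CDK9, from 0.0511 to 0.1148 for LARP7 and from -0.2086 to 0.0496 for HEXIM1. Log2 ratios then ran from -0.0126 to 0.0371 for AFF1 to AFF4, from -0.219 to 0.0048 for HEXIM1 to CDK9 and from -0.0194 to 0.0739 for LARP7 to CDK9. The causes were not tested.

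RPKM moved by over 1 SD with library totals alone for AFF4 (9.62), MLLT3 (6.86), CDK9 (6.03), CCNT1 (15.8), CCNT2 (7.53) and LARP7 (8.74). With the longest transcript it moved for AFF1 (5.7), AFF4 (11.9), MLLT3 (8.59), CDK9 (7.6), CCNT1 (17.5), CCNT2 (10.3) and LARP7 (23), since shorter lengths give higher values. Within 1 Mb in place of 5 Mb, medians of nearby genes were 0.0403 (AFF1), 0.0554 (MLLT1), -0.0834 (MLLT3), 0.0092 (CCNT1), -0.0645 (CCNT2), 0.0617 (HEXIM1) and 0.0242 (LARP7).

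Replicate numbers are shared by the groups but did not pair the libraries: deviations from group means correlated between -0.0301 and 0.0348 over all pairs of libraries across genes. With the replicate block 0 members passed the threshold and 3055 genes were higher and 2631 lower. The block gave log2 fold changes of 0.3325 for AFF1 and 0.3282 for AFF4, and 4 members were higher at an adjusted p under 0.05.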
